A study of Drosophila melanogaster with 12 samples.

Results

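The early response to chronic circadian misalignment (CCM) was examined in 6 of the 12 whole-fly RNA samples of the series, 3 from flies kept for 2 weeks on a 28 h light-dark cycle and 3 from flies kept for 2 weeks on a 24 h cycle. CCM-exposed flies had 14 h of light and 14 h of dark, control flies had 12 h of each, and the members were taken from the sample labels alone. All flies were of the strain iso31, each sample was a pool of 10 males and 10 females on sucrose and agar food, and RNA was taken shortly after lights-on. The other 6 samples hold the same schedules after 3 weeks and are used here only where a week 2 gene is followed further. The 3 CCM and 3 control samples carry the replicate letters A, B and C, and the p-values below measure the spread between these pools.

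The fly clock is a feedback loop in which Clk and cyc activate per and tim, whose proteins return to the nucleus and repress them. Light resets the loop through cry, so that a cycle longer than a day shifts it every morning. Clock-controlled genes in the fat body, gut and oenocytes include enzymes of lipid and sugar metabolism and of detoxification, and a pool of whole flies also holds RNA of gonads and accessory glands, muscle, brain and eye.

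Between 20353284 and 23687266 reads were counted in CCM samples and between 18253244 and 22105717 in control samples, so that 3 counts correspond to at most 0.164 CPM, the read count scaled to a common library size in any week 2 library. Replicates of a group differed by more than sampling noise in every pair, by a chi-square of 25.5 to 101 per degree of freedom. Control replicate C stood apart from the other 5 libraries, with a score of 43.9 on a first principal component that held 49.6% of the variance, where the others lay between -26.2 and 7.11. All tissue lists had tested members, as whole flies should, but only 9 of 24 eggshell genes and 1 of 3 salivary gland and crop genes were high enough to be tested. In such bulk samples fewer cells of a type and less RNA per cell cannot be told apart.

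After 2 weeks the adjusted threshold of 0.1 was passed by 0 of 12356 features (0%) in the quasi-likelihood test of edgeR, with Benjamini-Hochberg adjustment, and the smallest adjusted p was 0.71. An unadjusted p under 0.05 was found for 373 features that were lower in CCM (3.02%) and 327 that were higher (2.65%). In 917 features all 3 CCM values lay below all 3 control values (7.42%), and in 701 they all lay above them (5.67%). These shares are the background for each list below. The median log2 fold change (log2FC, CCM over control) of all features was 0.02, and 114 features were beyond 1 in either direction. DESeq2 with shrunken log2FC, the tool that the study names, gave an adjusted p under 0.1 for 6 features lower in CCM (0.042%) and 1 higher (0.00701%) of the 14273 that received an adjusted p. Since no feature passed in the edgeR fit, the genes below are described by their values, and their order by p is a ranking and not a set of calls.

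The genes that ranked first toward lower levels in CCM were of many kinds. Of the 12 with the smallest p among those whose groups did not overlap and whose mean was at least 1 CPM, CG18609 is a fatty acid elongase, Acox57D-d a peroxisomal acyl-CoA oxidase, and CG4830 and CG8834 belong to the acyl-CoA ligases. CG4562 (named Mrp5 in the present annotation), CG11898 and Mdr50 are ABC transporters, slif is a transporter of cationic amino acids, CG3739 is a serine carboxypeptidase of the S28 family, Rrp40 is a subunit of the RNA exosome, and Cyp49a1 is a cytochrome P450. Their log2FC ran from -1.86 to -0.62. DESeq2 called CG3739, CG4830, b6, CG18609, Acox57D-d and CG4562 among these 12.

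CG3739 lies on chromosome arm 3R from 19393360 to 19395188 (dm6) with a summed exonic length of 1586 bases. It had 94.2, 49.8 and 66.5 CPM in CCM samples A, B and C, against 226, 220.5 and 224 CPM in control samples. The control samples lay within a few CPM of each other, and the highest CCM sample was under their level by more than the spread of either group. The log2FC of CG3739 was -1.67 (standard error 0.26, n = 3 each), between -1.95 and -1.50 with each sample left out in turn. DESeq2 gave it an adjusted p of 1.7e-07, while by edgeR the unadjusted p of 9.9e-05 became 0.71 when adjusted.

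The enzymes of lipid metabolism among the 12 are given together. Acox57D-d (2R, 21389405 to 21392439), which carries out the first step of peroxisomal β-oxidation, had 20.3, 20.7 and 20.3 CPM in CCM samples and 30.9, 34.0 and 36.2 CPM in control samples. The CCM samples were nearly equal, and the log2FC was -0.72 (standard error 0.07). CG18609 (2R, 18742517 to 18743626), a member of the family that lengthens very long fatty acids, had 38.4, 27.9 and 27.3 CPM in CCM samples, against 62.8, 63.5 and 54.7 CPM in control samples, a log2FC of -0.95 (standard error 0.17). CG4830 (3R, 12208159 to 12210360) was counted at a low level, with 3.43, 1.43 and 1.86 CPM in CCM samples and 7.2, 9 and 8.12 CPM in control samples. Its log2FC of -1.86 (standard error 0.32) was the most negative of the 12. CG8834 (2R, 12420475 to 12422535) had 133, 83.9 and 92.8 CPM in CCM samples, against 186, 167 and 182 CPM in control samples. CCM sample A was the highest of its group in CG3739, CG18609, CG4830 and CG8834, and in 10 of the 12 genes in all.

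Among the transporters, CG4562 (3R, 19865417 to 19875678) had 69.9, 66.3 and 65.7 CPM in CCM samples and 103.8, 101 and 131 CPM in control samples. The gap between the groups was wider than the spread within either, and the log2FC was -0.73 (standard error 0.12) and -0.62 without control sample C, which was the highest. Mdr50 (2R, 14246966 to 14252597) had 39.7, 24.1 and 36.8 CPM in CCM samples, against 63.8, 54.1 and 61.9 CPM in control samples. CG11898 (3R, 29165643 to 29171508) had 7.12, 5.64 and 6.28 CPM in CCM samples and 9.43, 10.9 and 10.7 CPM in control samples. For slif (3L, 22881045 to 22893821), through which fat body cells take up amino acids, the levels were 84.2, 68.9 and 66.4 CPM in CCM samples and 113, 105 and 146 CPM in control samples. Its log2FC of -0.73 (standard error 0.18) became -0.59 without control sample C.

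The 3 remaining genes of this group were b6, Rrp40 and Cyp49a1. On the X chromosome (1686624 to 1690187), b6 had 3.08, 2.19 and 3.54 CPM in CCM samples, against 7.96, 9.98 and 6.57 CPM in control samples, with a log2FC of -1.48 (standard error 0.24). Rrp40 (2L, 1728732 to 1729762) had 18.2, 17.2 and 14.5 CPM in CCM samples and 25.7, 27.0 and 23.8 CPM in control samples. Cyp49a1 (2R, 10449350 to 10458892) had 6.66, 4.42 and 5.21 CPM in CCM samples, against 9.12, 9.17 and 12.4 CPM in control samples. None of the 3 overlapped between the groups, as the selection required, and b6 differed the most.

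**Figure D1:**
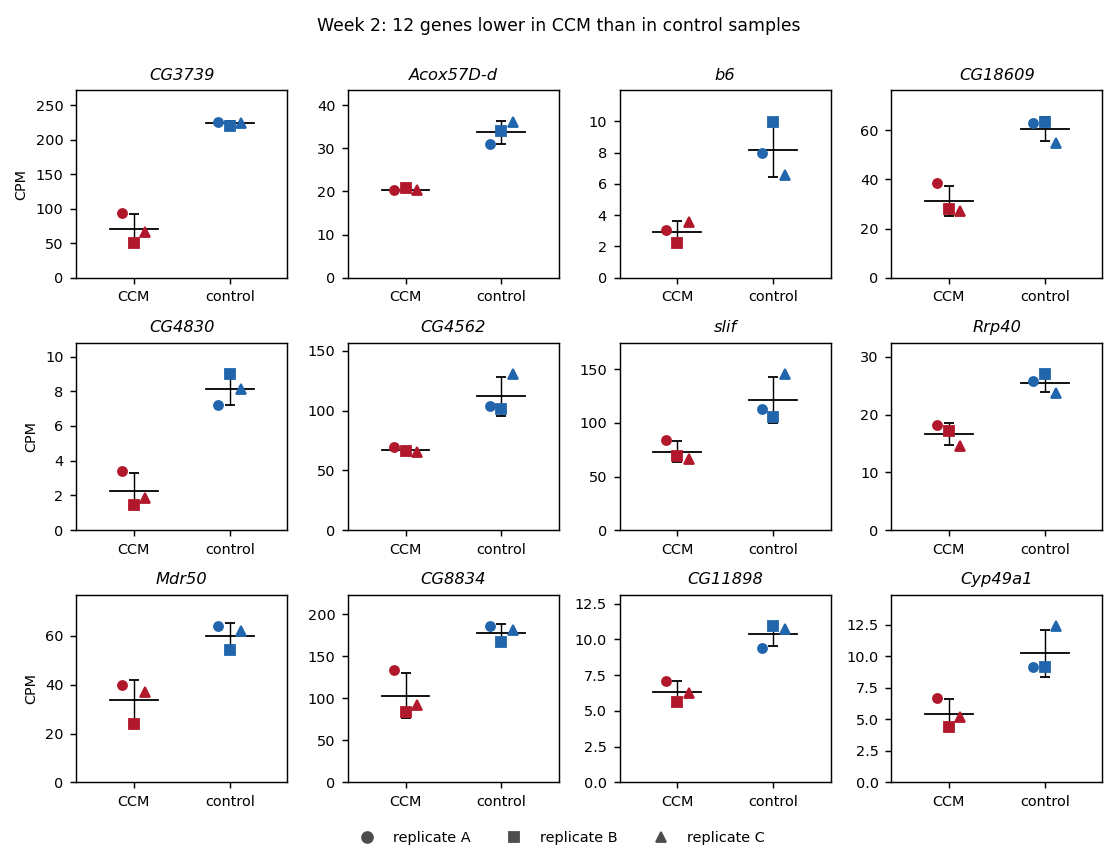
Normalized read counts (CPM, y axis from 0) of the 12 genes ranked first by p as lower in CCM at week 2, by sample, with CCM to the left of control in each panel. Symbols are the replicates, lines the mean and bars the SD (n = 3 each). CG3739 averaged 70.2 ± 22.5 CPM in CCM and 224 ± 3.02 CPM in control samples, and CCM sample A was the highest CCM sample in 10 of the 12 panels.

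The 12 genes that ranked first toward higher levels in CCM by the same rule were of mixed function. CG8745 and CG11241 are related aminotransferases, CG8665 is an aldehyde dehydrogenase of the formyltetrahydrofolate dehydrogenase type, and CG18135 is a glycerophosphocholine phosphodiesterase. CG17097 is a lipase, Ugt50B3 a UDP-glycosyltransferase, CG9377 a serine protease homolog, and CG11878 and CG6834 belong to the ecdysteroid kinase-like family. The log2FC of these 12 genes ran from 0.54 to 1.13, a narrower range than among the 12 lower genes.

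CG8745 (3L, 13860027 to 13866905) was abundant, with 528, 528 and 641 CPM in CCM samples, against 371, 391 and 321 CPM in control samples. The groups differed by a log2FC of 0.65 (standard error 0.13), and by 0.56 without control sample C. CG18135 (3L, 18990026 to 18998283) was the most abundant of these 12 genes, with 1309, 1456 and 1297 CPM in CCM samples and 896, 1028 and 862 CPM in control samples, a log2FC of 0.54 (standard error 0.09). CG11241 (3L, 22732013 to 22738420) had 81.3, 78.4 and 84.1 CPM in CCM samples, against 42.1, 63.2 and 48.6 CPM in control samples. In 11 of the 12 genes, CG18135 and CG11241 among them, control B was the highest control sample. CG8665 (2L, 21371227 to 21377995) had 24.0, 21.8 and 19.4 CPM in CCM samples and 11.1, 15.1 and 11.1 CPM in control samples, a log2FC of 0.80 (standard error 0.17).

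CG17097 (2L, 10646415 to 10650152) had 85.7, 113 and 123 CPM in CCM samples, against 50.5, 70.9 and 54.6 CPM in control samples. CG9377 (2L, 13359901 to 13361565) had 27.9, 15.6 and 29.3 CPM in CCM samples and 9.03, 13.3 and 10.9 CPM in control samples. Its log2FC of 1.13 (standard error 0.32) was the highest of the 12, although CCM sample B lay close to control sample B. Ugt50B3 (2R, 5496674 to 5549543) had 17.8, 21.4 and 16.6 CPM in CCM samples, against 10.9, 12.6 and 11.1 CPM in control samples. The ecdysteroid kinase-like gene CG11878 (3R, 25273837 to 25275237) had 116, 105 and 112 CPM in CCM samples and 58.1, 83.6 and 55.5 CPM in control samples. CG6834 (3R, 11684672 to 11688133), of the same family, had 26.1, 33.7 and 34.6 CPM in CCM samples and 21.2, 20.4 and 21.3 CPM in control samples, so that control samples varied little and CCM sample A lay nearest to them.

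The other 3 genes have no role given here. CG33109 (3R, 14220560 to 14221584) had 261, 267 and 267 CPM in CCM samples, against 146, 198 and 141 CPM in control samples. CG15635 (2L, 4642972 to 4646562) had 36.6, 46.9 and 42.7 CPM in CCM samples and 23.8, 30.6 and 21.6 CPM in control samples. CG42691 (2R, 19945731 to 19946814) was counted with few reads, at 1.97, 2.4 and 2.14 CPM in CCM samples and 1.03, 1.28 and 1.08 CPM in control samples. In all 3 control B was again the highest control sample and lay below each CCM sample.

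**Figure D2:**
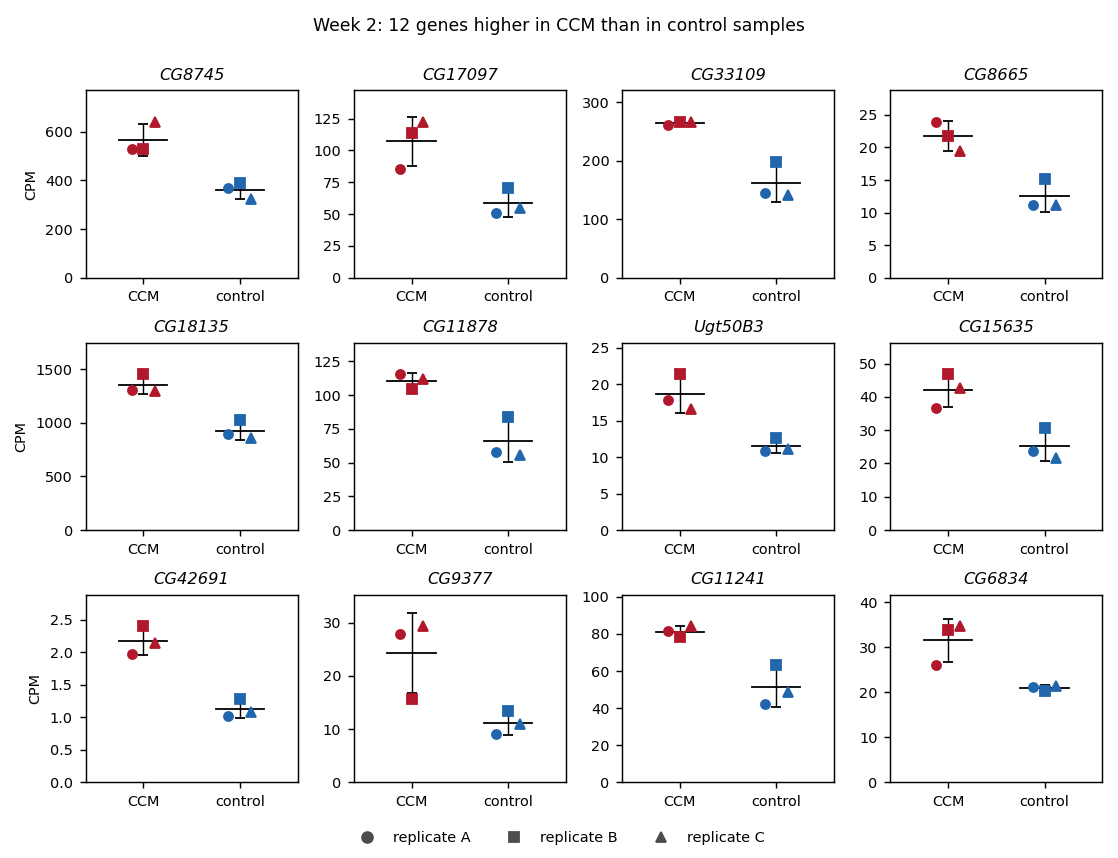
Normalized read counts (CPM, y axis from 0) of the 12 genes ranked first by p as higher in CCM at week 2, by sample, with CCM to the left of control. Symbols are the replicates, lines the mean and bars the SD (n = 3 each). CG18135 averaged 1354 ± 88.5 CPM in CCM and 929 ± 88.0 CPM in control samples, and control B was the highest control sample in 11 of the 12 panels.

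CG42792 (2L, 15864929 to 15865461), the single gene that DESeq2 called as higher in CCM, did not reach the mean of 1 CPM set for naming. It had 11, 25 and 43 counts in CCM samples, against 1, 0 and 0 counts in control samples, or 0.555, 1.05 and 2 CPM against 0.0447, 0 and 0 CPM. The ratio of the summed counts was 76.2, with an exact interval of 13.3 to 3046 at 95% that covers counting error only. The CCM samples themselves differed several-fold. At week 3 it had 3 counts in all CCM samples together and 2 in all control samples.

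The lists of related genes were then read against the background shares. Of the 5 tested S28 serine carboxypeptidases, the family of CG3739, 3 had groups that did not overlap and were lower in CCM. CG18493 had 154, 114.9 and 97.4 CPM in CCM samples and 194, 180.0 and 179.5 CPM in control samples. CG3734 had 38.2, 26.8 and 30.7 CPM in CCM samples, against 50.6, 44.9 and 42.2 CPM in control samples. CG2493 had 92.7, 78.4 and 93.8 CPM in CCM samples and 78.6, 99.99 and 75.2 CPM in control samples (log2FC 0.06), so not every member separated the groups. The 3 lower genes all lie on 3R between 19387861 and 19395188, and CG2493 lies on 2L. Of the 5 genes 4 had a negative log2FC, and 0 had a positive one without control sample C. The median log2FC of the 5 was -0.53, and CG3739 had put the family on the list.

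Lipid metabolism showed no common direction. Of 18 fatty acid elongases, 2 did not overlap and were lower in CCM and 1 was higher, with a median log2FC of -0.07, and CG9458, next by p after CG18609, had 42.0, 25.7 and 26.7 CPM in CCM samples and 38.9, 44.3 and 37.9 CPM in control samples. Of 21 acyl-CoA ligases and synthetases, 15 had a negative log2FC, and the median was -0.14. Among 10 genes of peroxisomal acyl-CoA oxidation only Acox57D-d did not overlap, and CG4586 had 13.5, 14.7 and 8.75 CPM in CCM samples and 21.1, 12.8 and 36.6 CPM in control samples. Of 13 genes of fatty acid synthesis and desaturation, 4 did not overlap and were higher in CCM (30.8%, background 5.67%) and 1 was lower. With length offsets 2 were higher without overlap, where the background was 6.55%, and 1 was lower. ATPCL, which makes cytosolic acetyl-CoA, had 731, 669 and 772 CPM in CCM samples and 571, 601 and 555 CPM in control samples. The fatty acid synthase FASN1 had 1204, 1495 and 1967 CPM in CCM samples, against 1069, 1149 and 1065 CPM in control samples. The desaturase Desat1 had 4194, 4183 and 4296 CPM in CCM samples and 2637, 3964 and 2754 CPM in control samples. The median of this list was 0.10, and -0.06 without CCM sample A. Of 19 genes of fat storage and lipolysis, 0 did not overlap, and 0 had an unadjusted p under 0.05.

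Sugar handling and digestion gave single genes in both directions. The sugar transporter CG4607 had 111, 75.7 and 113 CPM in CCM samples and 148, 159.5 and 143 CPM in control samples. Of 27 sugar transporters, 2 did not overlap and were lower in CCM. Without control sample C these were 5, where the background became 11.1%. Of 52 midgut digestive enzymes, 6 had an unadjusted p under 0.05 and were higher in CCM, and 2 were lower. Without overlap 2 were higher (3.85%, background 5.67%) and 0 were lower. The 6 included the maltases Mal-A6, Mal-A8 and Mal-B2. Mal-A6 had 507, 237 and 512 CPM in CCM samples and 229, 228 and 231 CPM in control samples. Mal-A8 had 121, 49.7 and 134 CPM in CCM samples, against 56.3, 38.2 and 52.7 CPM in control samples, so that in both genes CCM sample B was close to the controls. The median of the midgut list by sample, as a deviation from the mean of the 6 libraries, was 0.33, -0.39 and 0.02 in CCM samples and -0.05, 0.13 and -0.03 in control samples. Glycolysis held 13 genes, of which 1 did not overlap.

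Detoxification genes were split as well. Of 74 cytochrome P450 genes, 11 did not overlap and were higher in CCM (14.9%), and 7 were lower (9.46%). Cyp6g1, known for its part in insecticide resistance, had 510.2, 493 and 579 CPM in CCM samples and 349.7, 426 and 329 CPM in control samples. Cyp4e2 had 121, 128 and 129 CPM in CCM samples, against 88.3, 103 and 89.8 CPM in control samples, and Cyp28d1 had 384, 343 and 438 CPM, against 237, 307 and 205 CPM. The median of the P450 list was 0.14, and 0.04 without control sample C. Of 29 UDP-glycosyltransferases, 4 had an unadjusted p under 0.05 and were higher in CCM. The 33 glutathione S-transferases had a median of 0.00, and 2 did not overlap and were lower in CCM. Without control sample C these were 8, where the background became 11.1%, and the median was -0.08 with 22 negative genes. For 23 antioxidant enzymes and 18 genes of endoplasmic reticulum stress, 0 had an unadjusted p under 0.05. Of 18 cytosolic chaperones and heat shock genes 1 did, Hsp27, with 87.0, 109 and 62.1 CPM in CCM samples and 163, 76.5 and 306 CPM in control samples.

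The 8 core clock genes were all tested. The repressor gene vri had 177, 182 and 157 CPM in CCM samples, against 139, 148 and 125 CPM in control samples, without overlap (log2FC 0.32, standard error 0.09). The activator gene cyc had 38.6, 41.6 and 38.0 CPM in CCM samples and 46.2, 42.8 and 53.7 CPM in control samples, the only other clock gene without overlap (log2FC -0.27, standard error 0.10). That is 1 gene of 8 in each direction, a list too short to set against the background shares. With length offsets 0 of the 8 were higher without overlap and 1 was lower, and the log2FC of vri was 0.30. The partner gene of cyc, Clk, a rare transcript, had 7.52, 11.7 and 19.2 CPM in CCM samples and 9.21, 6.85 and 15.2 CPM in control samples. For per the levels were 39.9, 39.8 and 44.8 CPM in CCM samples and 34.2, 42.7 and 31.9 CPM in control samples, and for tim 111, 139.7 and 149 CPM, against 155, 134 and 169 CPM. Both overlapped. Pdp1, an activator of Clk, had 123, 236 and 290.2 CPM in CCM samples and 143, 103 and 262 CPM in control samples, a pattern in which sample C was the highest and the groups did not separate. The photoreceptor protein gene cry had 261, 205 and 242 CPM in CCM samples, against 212, 258 and 172 CPM in control samples, and the repressor gene cwo 94.3, 103.9 and 143 CPM, against 81.7, 91.1 and 109 CPM. RNA was taken in a single window after lights-on, so these values give no phase. Of 18 clock kinases, phosphatases and turnover genes, 1 did not overlap in each direction.

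Peptide hormones leaned toward higher levels in CCM, with a positive log2FC in 32 of 38 tested genes and a median of 0.24. Of these, 6 did not overlap and were higher and 1 was lower. The insulin-like peptide Ilp6, made in the fat body, had 52.3, 78.6 and 82.1 CPM in CCM samples and 43.2, 49.2 and 40.0 CPM in control samples. Ilp8, a relaxin-like peptide, had 107, 85.3 and 101 CPM in CCM samples, against 60.3, 79.4 and 71.5 CPM in control samples. Limostatin (Lst), a decretin that lowers insulin release, had 288, 273 and 228 CPM in CCM samples and 174, 236 and 171 CPM in control samples, where CCM sample C lay below control sample B. Without control sample C the median of the list was 0.07. In the insulin and TOR pathway, the translation inhibitor Thor had 469, 455 and 470.4 CPM in CCM samples and 367, 393 and 345 CPM in control samples, and chico, the insulin receptor substrate, had 18.7, 36.1 and 32.8 CPM in CCM samples and 16.3, 15.1 and 23.6 CPM in control samples. Of 25 biogenic amine genes, 5 did not overlap and were higher in CCM (20%, background 5.67%) and 2 were lower (8%, background 7.42%). With length offsets 2 were higher without overlap, where the background was 6.55%, and 0 were lower. Among the 5 higher before the offsets, the dopamine receptor gene Dop2R had 6.56, 4.8 and 6 CPM in CCM samples, against 4.11, 2.96 and 3.89 CPM in control samples. The juvenile hormone esterase Jhe, which breaks the hormone down, had 10.3, 7.61 and 12.0 CPM in CCM samples and 18.7, 23.0 and 14.4 CPM in control samples.

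Genes of snoRNPs and the RNA exosome, which modify, process and degrade structured RNA in the nucleus, were written down as a list only after nop5, NHP2 and Rrp40 had been seen to be low in CCM, so its numbers are a description. Of its 17 genes, 16 had a negative log2FC, 12 did not overlap and were lower in CCM, and the median was -0.32. The box C/D protein gene nop5 had 138, 155 and 129 CPM in CCM samples and 181, 191 and 226 CPM in control samples. The H/ACA protein gene NHP2 had 39.0, 41.3 and 35.9 CPM in CCM samples, against 50.1, 54.4 and 55.0 CPM in control samples. Fib, the methyltransferase of box C/D particles, had 242, 231 and 239 CPM in CCM samples and 285, 360.4 and 321 CPM in control samples. The median deviation of the list was negative in each CCM sample and positive in each control sample, and the median log2FC stayed between -0.41 and -0.28 with each sample left out in turn. Of 71 mitochondrial ribosomal proteins, 10 did not overlap and were lower in CCM (14.1%) and 1 was higher, with a median of only -0.08. With length offsets the median was -0.16 and 20 did not overlap and were lower in CCM, where the background was 8% lower and 6.55% higher. Without control sample C, 22 were lower without overlap, where the background became 11.1%, and the median was -0.13. Of these proteins mRpL12, the first by p, had 69.3, 63.4 and 54.4 CPM in CCM samples and 76.3, 77.6 and 76.8 CPM in control samples. The 81 cytosolic ribosomal proteins had a median of 0.07, with 78 positive genes. Only RpS5b did not overlap, and it was lower in CCM (log2FC -0.39). Without control sample C the median of this list was -0.03, with 65 negative genes.

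Tissue markers varied widely between libraries of the same schedule. Of 58 tested accessory gland genes, which encode seminal fluid proteins, 57 had a positive log2FC with a median of 0.53, and 17 did not overlap and were higher in CCM (29.3%). The summed level of the list was 2351, 2167 and 2118 CPM in CCM samples and 1617, 2221 and 1148 CPM in control samples, so control sample B lay within the CCM samples and control sample C was the lowest. Acp26Aa, a peptide of the male ejaculate that stimulates ovulation, had 26.9, 32.4 and 27.1 CPM in CCM samples and 13.5, 20.7 and 10.8 CPM in control samples. The serpin gene Spn28F had 17.1, 19.5 and 13.4 CPM in CCM samples, against 7.06, 11.0 and 5.18 CPM in control samples. Sfp36F, the first of the list by p, had 1.41, 1.26 and 1.35 CPM in CCM samples and 0.358, 0.522 and 0.173 CPM in control samples. Without control sample C the median of the list was 0.31 and 50 genes were positive. The count higher without overlap stayed 17, where the background became 8.67%. As control sample C was the lowest control in the list's sum, leaving it out could hardly change this count. The 40 testis genes had a median of 0.29, and 36 were positive, but 1 did not overlap, and the median was 0.13 without control sample C and 0.04 without CCM sample C. For the 5 tested Y-linked fertility genes the median was 0.59, and control sample B was the lowest. Their summed level was only 3.63 to 7.54 CPM in CCM samples and 1.74 to 4.43 CPM in control samples, so counting error is large. With each sample left out in turn the median ran from 0.35 to 1.08. The ejaculatory bulb, whose products are also male, gave 4 genes with a median of 0.11 and 0 without overlap.

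Germline and dividing-cell genes ran the other way in the same library. Of 47 tested germline and oocyte genes, 42 had a negative log2FC with a median of -0.57 and 9 an unadjusted p under 0.05, yet 0 were without overlap. Their summed level was 2269, 3066 and 2277 CPM in CCM samples and 3353, 2183 and 5588 CPM in control samples. Control sample B thus had less of these transcripts than any CCM sample, and control sample C far more. The pan gu kinase subunits png and gnu, which drive translation of maternal mRNA, had the same order among control samples. For png the levels were 14.8, 15.7 and 9.44 CPM in CCM samples and 25.1, 15.3 and 42.8 CPM in control samples, and for gnu 26.4, 29.4 and 17.9 CPM, against 41.7, 27.3 and 66.4 CPM. All 28 genes of DNA replication and the cell cycle had a negative log2FC, with a median of -0.71 and 1 without overlap. That gene was aurB, a mitotic kinase, with 7.87, 9.04 and 6.14 CPM in CCM samples and 13.5, 10.4 and 21.6 CPM in control samples. Without control sample C the median became -0.15 for the germline list, with 31 negative genes. For the replication list it became -0.31, and all 28 genes stayed negative. The summed level of the replication list was 1163, 1438 and 842 CPM in CCM samples and 1739, 1072 and 3141 CPM in control samples. Control sample B thus lay below CCM samples A and B, so without control sample C the groups still overlapped in this sum. The eggshell genes, with sums of 48.9 to 66.3 CPM in CCM samples and 51.6 to 116 CPM in control samples, had a median of 0.13, and the 3 yolk protein genes had a median of 0.14 with 0 without overlap.

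Immune and stress peptides also varied by library. The 5 tested Turandot genes, small secreted peptides induced by stress, all had a positive log2FC with a median of 1.02, and 0 were without overlap. TotA had 1702, 1089 and 1765 CPM in CCM samples and 759, 1168 and 309 CPM in control samples. TotC had 1145, 806 and 1517 CPM in CCM samples, against 543, 952 and 212 CPM in control samples. In both, CCM sample B lay below control sample B, and control sample C was the lowest of all. The 31 antimicrobial peptides had a median deviation of 0.79, -0.28 and -0.11 in CCM samples and 0.06, 0.50 and -1.10 in control samples. Their median log2FC of 0.12 became -0.15 without control sample C, and 0 genes were without overlap. Of 30 genes of peptidoglycan recognition and the Toll and Imd pathways, 4 did not overlap and were higher in CCM and 1 was lower, with 16 negative and 14 positive genes and a median of -0.03. With length offsets 1 was higher without overlap. The transcription factor Rel had 141, 144 and 128 CPM in CCM samples and 97.7, 125 and 107 CPM in control samples.

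The remaining tissue lists had medians that moved with single libraries. Neuron markers had a positive log2FC in 20 of 23 genes and a median of 0.19, but their median deviation was -0.36, 0.21 and 0.43 in CCM samples and -0.14, -0.46 and 0.32 in control samples, and 1 gene did not overlap. The median was 0.41 without control sample C, 0.01 without control sample B and -0.02 without CCM sample C. Photoreceptor markers had a median of -0.03 with 0 without overlap, and CCM sample B was the lowest with a median deviation of -0.41. Rh4, a rhodopsin, had 109, 77.9 and 143 CPM in CCM samples and 154, 160.3 and 124 CPM in control samples, with overlap. Fat body markers, a list that also held the peptide hormone gene Lst, had a median of 0.22, and of 0.06 without control sample C. Hemocyte markers had a median of 0.19, and without control sample C of -0.01 with 7 positive and 7 negative genes. The lipophorin gene apolpp, the main lipid carrier of the hemolymph, had 365, 829.7 and 1259.9 CPM in CCM samples and 356, 284 and 579 CPM in control samples. The hemocyte gene Hml had 76.1, 203 and 234 CPM in CCM samples, against 101, 80.6 and 82.1 CPM in control samples. In both, CCM sample A lay with or below the controls. Muscle, glia, Malpighian tubule, oenocyte and chitin lists had medians between -0.02 and 0.17. Of 35 muscle genes 4 did not overlap and were higher in CCM and 2 were lower, with a median of 0.15 that was 0.05 with length offsets. Of 18 oenocyte genes 1 was higher and 2 were lower without overlap, and of 15 Malpighian tubule genes 2 were higher. With length offsets 0 of these Malpighian tubule genes were higher without overlap.

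**Figure D3:**
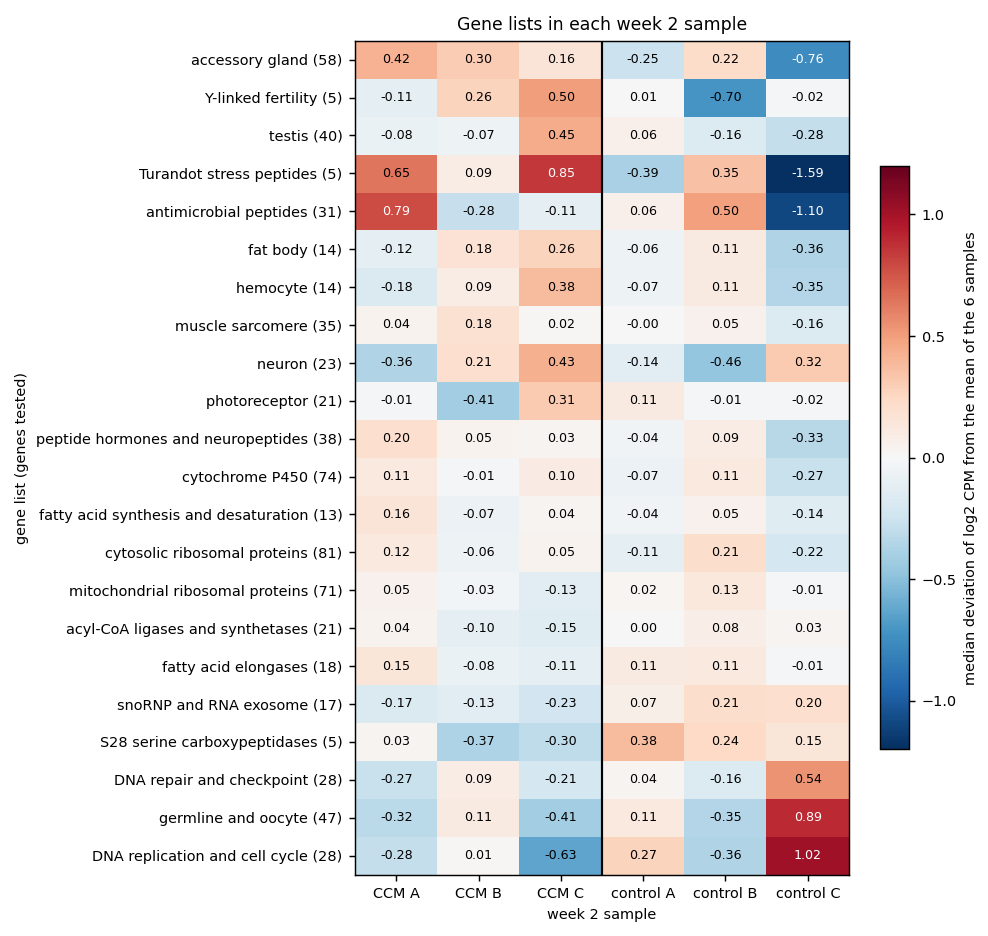
Median deviation of log2 CPM (pseudocount 0.5) from the mean of the 6 week 2 libraries for 22 gene lists (rows, with the number of genes tested), for CCM samples A to C on the left and control samples A to C on the right of the black line. Control C has 1.02 for DNA replication and cell cycle, 0.89 for germline and oocyte, -0.76 for accessory gland and -1.59 for Turandot genes. The snoRNP and exosome list is negative in each CCM sample and positive in each control sample, but it was written down after some of its genes were seen to be low in CCM.

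Libraries also differed along gene length. Across 11515 genes with an annotated exonic length, the correlation of a library's deviation from the mean with log2 length was -0.50, 0.26 and 0.16 in CCM samples A, B and C, and -0.24, -0.46 and 0.48 in control samples. Each group thus held libraries with opposite trends, and the points of each correlation are genes of 1 library, not replicates. In the 461 genes over 8 kb the median deviation was -0.30, 0.21 and 0.31 in CCM samples and -0.13, -0.48 and 0.36 in control samples. In the 2284 genes under 1 kb it was 0.11, -0.03 and 0.04 in CCM samples and 0.04, 0.11 and -0.29 in control samples. The difference between CCM and control kept little of this, with a correlation of -0.06 between log2FC and log2 length. That value rested on which libraries were included, since it was 0.29 without control sample C, -0.24 without control sample B and 0.11 without CCM sample A. Median log2FC by length was 0.10 under 1 kb, -0.01 at 1 to 2 kb, -0.02 at 2 to 4 kb, 0.02 at 4 to 8 kb and 0.14 over 8 kb. Over 8 kb it was 0.39 without control sample C and -0.03 without control sample B.

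**Figure D4:**
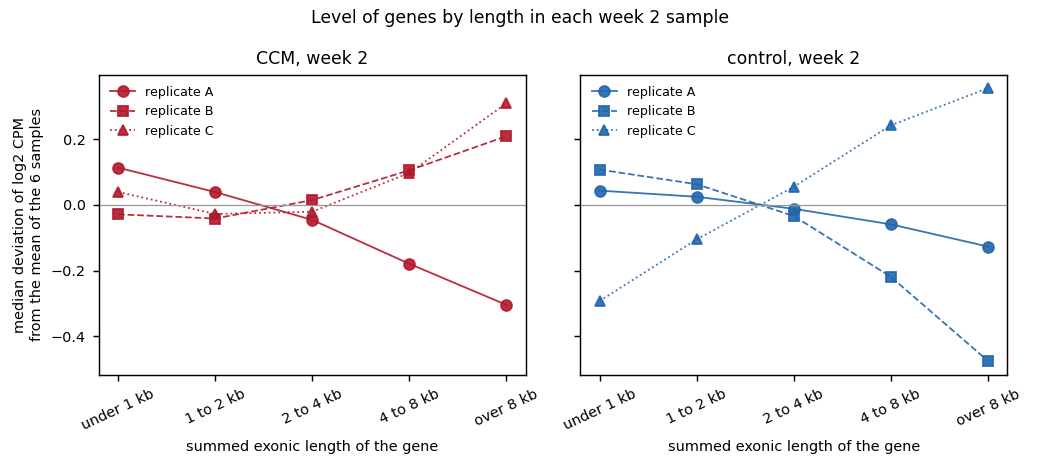
Median deviation of log2 CPM from the mean of the 6 week 2 libraries (y axis) in 5 bins of summed exonic length (x axis), with CCM samples in the left panel and control samples in the right. The line falls with length in CCM A and control A and B. From 1 to 2 kb upward it climbs in CCM B and C, and it climbs over all bins in control C, from -0.29 under 1 kb to 0.36 over 8 kb in control C.

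Few genes over 8 kb separated the groups before any correction for gene length. Each group held libraries with opposite trends in these genes, which widens their spread. The shares by length were not taken again after correction, so they do not show a weaker response of long genes. Of the genes over 8 kb, 0.651% were lower in CCM and 1.3% higher without overlap, against 10.7% and 5.2% at 1 to 2 kb. The median length was 1756 bases for the 917 features that were lower without overlap and 1779.5 for the 701 that were higher, against 1878 for all tested. With per-library offsets that follow gene length, an unadjusted p under 0.05 was found for 541 features lower in CCM (4.38%) and 440 higher (3.56%), and 0 passed the adjusted threshold. The log2FC of the 24 genes described first moved by 0.05 or less with these offsets, and their adjusted p lay between 0.33 and 0.58. In the accessory gland list, with a median length of 513 bases, 23 genes then had an unadjusted p under 0.05 against 12 before, and the median was 0.44. For the germline list the median was -0.55 with the offsets. The long neuron genes, with a median length of 7190 bases, had a median log2FC of 0.11 with them.

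The same counts were taken by level and by chromosome of the gene. Genes with a mean of 10 to 100 CPM were more often lower without overlap (10.6%) than higher (3.71%), and genes of 1 to 10 CPM more often higher (8.64%) than lower (3.07%). Among 1840 X-linked features 10.1% were lower and 3.53% higher without overlap, whereas on 2L both shares were 6.64%. Without control sample C the background shares were 11.1% lower and 8.67% higher. The 9 Y-linked features, among them fertility genes with few counts, had a median log2FC of 0.53.

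Week 3 samples come from other flies and were not used to rank these genes. All 12 genes that were lower in CCM at week 2 had a negative log2FC at week 3, with a median of -0.43, and 8 of the 12 higher genes had a positive one, with a median of 0.20. With length offsets 11 of the 12 lower genes, all but CG11898 (log2FC 0.01), and 10 of the 12 higher genes kept their sign, and CG4562 had a week 3 log2FC of -0.13 against -0.38 without them. Of all 12107 features tested in both weeks, 58.7% had the same sign. In the week 3 fit, CG18609 (log2FC -0.87, adjusted p = 0.041) and CG3739 (log2FC -1.004, adjusted p = 0.056) fell by the same edgeR test. For CG8745 the week 3 log2FC was 0.63 and for CG18135 it was 0.47, each at an adjusted edgeR p of 0.19. CG4830 had a log2FC of -0.51 at week 3 and -1.86 at week 2, and Ugt50B3 one of -0.42 at week 3 and 0.69 at week 2. Whether the schedule acted differently in the 2 weeks was tested in edgeR with an interaction term over the 12 libraries, which passed an adjusted p of 0.1 for 0 of 12530 features (0%), with 570 at an unadjusted p under 0.05 and 1 call by DESeq2 without shrinkage. The smallest unadjusted interaction p among the 24 genes was 0.0031, for Ugt50B3, and its adjusted p was 0.91, so for none of the 24 genes was the week 2 difference shown to differ from that of week 3.

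**Figure D5:**
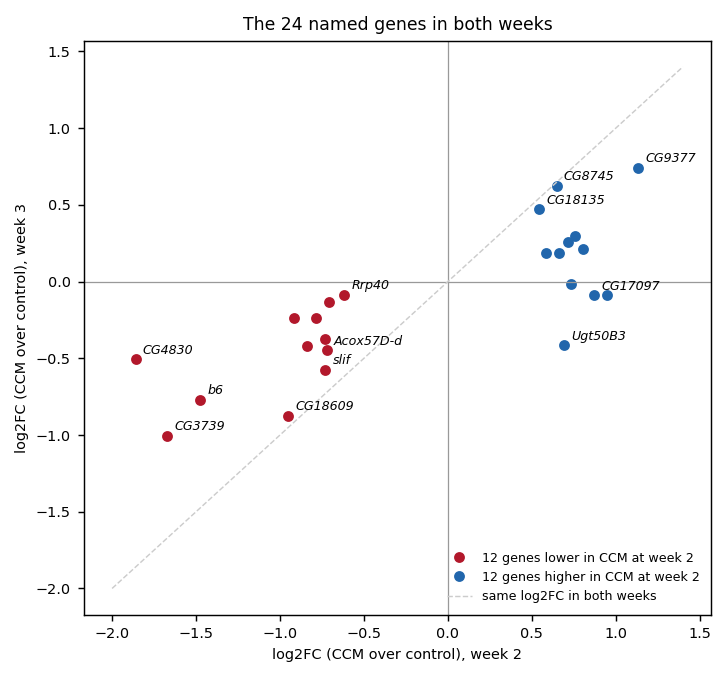
Log2FC of CCM over control at week 2 (x axis) and week 3 (y axis) for the 12 genes lower (red) and 12 higher (blue) in CCM at week 2, with the line of equal values dashed. All 12 red points lie below 0 on the y axis and 8 of the 12 blue points lie above it. CG4830 is farthest from the line on the left, at -1.86 and -0.51.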

How the data were processed

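Whole-fly RNA of 6 week 2 samples was analysed, and the 6 week 3 samples were used for follow-up and the interaction. The authors filtered 150-base paired reads, aligned them to dm6 with STAR, and counted with MMquant against an annotation stripped of non-coding genes, which puts reads shared by near-identical genes into merged genes. The values they deposited are raw counts for 14413 features (1173 merged), without normalization. Merged genes held 2.33 to 2.65% of week 2 counts. Strandedness is not given in the sources used here, so overlapping genes on opposite strands were not separated, and recent duplicates such as Turandot or maltase genes are uncertain for the same reason as merged ones.

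In R 4.3.3, features kept by filterByExpr were TMM-normalized and tested with edgeR 4.0.16 (quasi-likelihood, Benjamini-Hochberg, adjusted p under 0.1, the study's cutoff), with DESeq2 1.42.0 as an alternative. CPM use TMM-scaled totals of the 6 libraries. Standard errors come from log2 CPM with a pseudocount of 0.5, which compresses low levels, while log2FC come from edgeR. Positions and lengths came from Ensembl release 115, which matched 13025 of 13240 single-gene features. Python 3.11.15 with numpy 2.4.6, pandas 2.3.3, scipy 1.17.1 and matplotlib 3.10.9 made tables and figures. Fits were tested on simulated data.

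Named genes were the 12 with the smallest p in each direction among features without overlap and a mean of at least 1 CPM, the 7 genes that the study names for week 2, up to 4 members with the smallest p in each list described, and all core clock genes. The 65 lists, and 1 added after values were seen, hold 1555 tested members. Members and lists were chosen with earlier results of these data known. The alternatives were DESeq2 with and without shrinkage, RLE normalization, library totals, no filter, a replicate block, all 12 samples, length offsets (lowess, span 0.3), single-gene features, adjusted p under 0.05, Spearman's correlation, a mean of at least 10 CPM, and each sample left out. Replicate spread, and not depth, limits most values.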

Additional observations from a re-analysis of the deposited data

How the results depend on the processing

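The count of features past the threshold at week 2 was 0 in the edgeR fit and 7 with DESeq2, with or without shrinkage. It was 2 with all 12 samples in a single fit (CG3739 and CG18609) and 1 with length offsets and the replicate block (CG3739), and it stayed 0 under RLE normalization, library totals, no filter, length offsets alone, single-gene features and an adjusted p under 0.05. The count at an unadjusted p under 0.05, 700 in the main analysis, was 1067 with all 12 samples, and between 239 (without CCM sample C) and 1709 (without control sample B) with each sample left out, so control B and CCM C weigh most on it. With library totals only, 500 of these were lower in CCM and 240 higher, against 373 and 327 in the main analysis, and 0 were called. With the replicate block the count was 334, with 0 calls. The labels state no pairing by letter. Deviations of same-lettered samples had correlations of -0.42 to 0.11 across genes, and other pairings reached 0.50. These correlations cannot show whether samples of a letter were handled together. The interaction of schedule and week gave 0 calls and 1 with DESeq2, for dpy (week 2 minus week 3 log2FC 1.73, adjusted p = 0.0019). The 24 genes and CG42792 kept their direction in all 400 refits. As their groups do not overlap, this was largely fixed in advance. Of 66 list medians, 37 changed sign in at least 1 alternative, 18 of them without control sample C and 16 without CCM sample A. The cause was not tested.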

Other observations

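Among genes not described above, the odorant receptor gene Or85f had 0.656, 0.589 and 0.651 CPM in CCM samples and 0.179, 0.232 and 0.173 CPM in control samples (log2FC 1.69), and was not tested at week 3. Its control values lay near the level of 3 counts, at most 0.164 CPM, so counting error is large for this gene. The serotonin receptor gene 5-HT7 had 2.68, 3.15 and 5.26 CPM in CCM samples and 1.88, 1.86 and 2.51 CPM in control samples. Alp4, the alkaline phosphatase of the Malpighian tubule, had 331, 263 and 334 CPM in CCM samples and 198, 262 and 188 CPM in control samples, with the closest pair in the samples lettered B. The vacuolar proton pump gene Vha100-4 had 16.3, 16.7 and 16.2 CPM in CCM samples, against 19.7, 26.3 and 22.7 CPM in control samples (log2FC -0.48, standard error 0.12). These genes had the smallest p in lists of 13, 25, 15 and 26 tested genes (5-HT7 was second after Dop2R), and none had an adjusted p under 0.1 in edgeR's quasi-likelihood test.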
